A study of Mus musculus with 7 samples.

Results

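The levels of genes of red blood cell formation were followed array by array in 7 bowel cell samples, taken by sorting from mice at embryonic day 17.5. All embryos carried Wnt1-Cre, a recombinase driven in the neural crest, and R26R-EYFP, whose yellow fluorescent protein, EYFP, is made in cells in which Cre was active and in their descendants. Fluorescence-activated cell sorting of whole bowel gave 4 YFP-positive samples, labelled enteric neural crest-derived cells (ENCDC), and 3 YFP-negative samples, labelled non-ENCDC. Both alleles were thus present in every sample and no agent or second genotype was named. The study set the populations against each other to find genes that ENCDC express more, with a possible part in late development of the enteric nervous system. Nothing in the labels says that replicates were separate embryos or litters, or how many bowels each sample pooled, so each p-value speaks of the spread among the arrays at hand, which may be technical.

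The genes were chosen by symbol: Alas2, Slc4a1, Epor, Klf1, Gata1, Ahsp, Hemgn and Rhag. The platform annotation paired 7 of these 8 symbols with a probe set of their own, 1 probe set each, among 19938 genes with such a probe set. Ahsp, which encodes a chaperone of free alpha-globin, is not analysed here. No filter on low values was applied, so all 7 were tested. Values are log2 levels after RMA (robust multi-array average), in which 1 unit is a 2-fold difference. They carry no detection call, so a low level can be largely background, and levels are compared between arrays for 1 gene, not between genes.

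Red cells form from progenitors that depend on erythropoietin, which acts through the receptor encoded by Epor. The zinc-finger factors GATA1 and KLF1 then switch on genes for haem, globin and the red cell membrane, and the cell loses its nucleus. The young red cell, or reticulocyte, keeps part of its messenger RNA for a time without making more. In the embryo a first, primitive wave of red cells arises in the yolk sac and makes embryonic globins, and a later, definitive wave from the fetal liver makes adult ones. Red cells are no lineage of the neural crest, and in the bowel they lie in blood vessels.

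The promoter sequences of these genes are shown because GATA1 and KLF1 act through short DNA motifs. The part of these motifs in the levels of the genes was not tested. The RefSeq promoter table (GRCm38.p6) held 6 of the 8 symbols. Each sequence below covers the 250 bases before the annotated start, on the strand of the gene, from 5′ to 3′. Capitals mark matches on either strand to a GATA motif (AGATAA with its variant AGATAG, and TGATAA with its variant TGATAG) or to the motif CCNCNCCC, a form of the CACCC box bound by KLF proteins. The windows lie at chrX:150547167-150547416 (Alas2, plus strand), chr17:40810899-40811148 (Rhag, plus strand), chr4:46404184-46404433 (Hemgn, minus strand), chr8:84901732-84901981 (Klf1, plus strand), chr9:21963577-21963826 (Epor, minus strand) and chrX:7967911-7968160 (Gata1, minus strand).
Alas2: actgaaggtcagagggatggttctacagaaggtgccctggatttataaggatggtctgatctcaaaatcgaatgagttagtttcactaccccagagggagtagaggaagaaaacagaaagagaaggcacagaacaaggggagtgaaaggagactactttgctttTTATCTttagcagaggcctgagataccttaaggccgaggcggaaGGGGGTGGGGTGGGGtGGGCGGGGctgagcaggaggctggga
Rhag: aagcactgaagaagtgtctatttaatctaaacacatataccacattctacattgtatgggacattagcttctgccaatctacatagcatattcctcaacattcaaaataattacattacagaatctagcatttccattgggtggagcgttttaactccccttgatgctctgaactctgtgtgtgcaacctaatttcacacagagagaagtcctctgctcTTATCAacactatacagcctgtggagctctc
Hemgn: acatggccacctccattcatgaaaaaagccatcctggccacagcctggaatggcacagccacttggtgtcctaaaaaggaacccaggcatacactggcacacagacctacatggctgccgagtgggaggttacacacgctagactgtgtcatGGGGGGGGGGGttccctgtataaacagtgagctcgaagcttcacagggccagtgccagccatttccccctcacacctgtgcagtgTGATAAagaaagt
Klf1: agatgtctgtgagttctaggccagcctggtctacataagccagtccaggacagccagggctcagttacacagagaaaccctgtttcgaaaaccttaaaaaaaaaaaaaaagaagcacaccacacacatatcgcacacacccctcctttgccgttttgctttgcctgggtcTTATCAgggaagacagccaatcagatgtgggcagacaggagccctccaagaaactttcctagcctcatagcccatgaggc
Epor: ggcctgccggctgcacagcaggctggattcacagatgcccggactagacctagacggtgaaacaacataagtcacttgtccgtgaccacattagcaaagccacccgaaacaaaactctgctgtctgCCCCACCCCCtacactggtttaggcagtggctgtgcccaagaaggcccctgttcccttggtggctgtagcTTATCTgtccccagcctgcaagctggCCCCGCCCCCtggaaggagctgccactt
Gata1: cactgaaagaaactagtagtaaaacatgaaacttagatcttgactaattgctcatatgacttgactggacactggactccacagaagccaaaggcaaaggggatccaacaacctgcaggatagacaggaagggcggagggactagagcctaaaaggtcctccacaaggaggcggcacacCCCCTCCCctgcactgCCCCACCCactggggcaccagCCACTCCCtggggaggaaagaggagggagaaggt
A GATA match stood in 5 of the 6 windows, and 26.5% of the 32851 promoters of the table hold one. The CCNCNCCC motif stood in 4 of the 6, against 45.9% of all promoters, and both motifs stood in 3, those of Alas2, Epor and Hemgn, against 8.19%. The matches of CCNCNCCC overlap each other in runs of the same base, as in Hemgn. Klf1 and Rhag had 1 GATA match each and none of CCNCNCCC, and Gata1 had 3 matches of CCNCNCCC and none of the GATA motif. A match describes letters only, and Epor, which holds both motifs, varied least of the 7 measured genes.

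All 7 genes had their highest level on YFP-negative array 3, and 6 of them, all but Epor, stood there at least 2-fold above every other array. Over all genes, 16.6% had their highest level on that array and 125 of 19938, or 0.627%, stood at least 2-fold above every other array there. On the 4 YFP-positive arrays the same 7 genes spanned between 0.11 (Gata1) and 0.82 (Slc4a1) log2 units. With YFP-negative array 1 as the only YFP-negative array, the log2 differences of the 7 genes ran from -0.91 (Alas2) to 0.06 (Rhag). YFP-negative array 2 stood well above array 1 for Alas2 and Slc4a1. A single array has no replicate, so its distance from the others is given without a test.

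**Figure D1:**
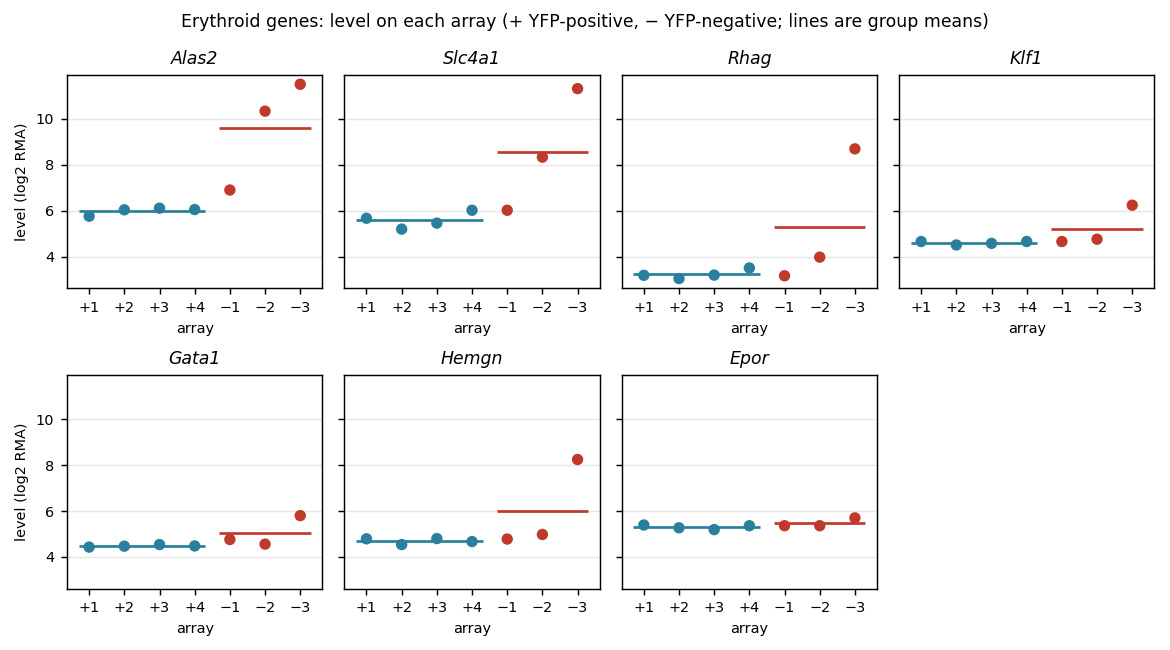
Level (log2 RMA, vertical axis) of the 7 erythroid genes on each array (horizontal axis; + YFP-positive 1 to 4, − YFP-negative 1 to 3), with points for arrays and lines for group means. The point of YFP-negative array 3 is the highest in every panel, and that of array 2 stands clear of the YFP-positive points for Alas2 and Slc4a1.

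Alas2 encodes the erythroid 5-aminolevulinate synthase, the first enzyme of haem synthesis in red cell precursors. Its log2 level was 5.76, 6.04, 6.11 and 6.05 on YFP-positive arrays 1 to 4 and 6.90, 10.33 and 11.50 on YFP-negative arrays 1 to 3. The groups did not overlap, and the YFP-negative arrays spread far more than the YFP-positive ones. The mean was 5.99 ± 0.16 (SD, n = 4) against 9.58 ± 2.39 (SD, n = 3), a log2 fold change, YFP-positive minus YFP-negative, of -3.59 ± 0.98 (SE). Alas2 fell in YFP-positive cells by this test with a limma adjusted p over all genes of 0.0475. The test assumes the same spread in both groups, which the SDs of 0.16 and 2.39 do not meet. The call was lost without any single array other than YFP-negative array 1, with adjusted p values from 0.102 to 0.163 in those fits, while without YFP-negative array 1 the log2 fold change was -4.93. Alas2 was the only one of the 7 genes called in this comparison, in which 9.11% of all genes were called lower and 8.39% higher in YFP-positive cells.

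Slc4a1 encodes band 3, the anion exchanger that anchors the red cell skeleton to the membrane. Its levels were 5.67, 5.20, 5.46 and 6.02 on the YFP-positive arrays and 6.02, 8.33 and 11.31 on YFP-negative arrays 1 to 3. YFP-negative array 1 reached only the highest YFP-positive array, so the groups overlapped, while array 3 was 39.2-fold above array 1. The log2 fold change of -2.97 ± 1.1 (SE) did not pass (limma adjusted p = 0.119). Without YFP-negative array 1 it was -4.23 and passed (limma adjusted p = 0.0229). Among all genes Slc4a1 had the third largest SD within the YFP-negative group, 2.65.

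Rhag encodes the Rh-associated glycoprotein, which carries the Rh complex to the red cell surface. It stood at 3.19, 3.05, 3.20 and 3.51 on the YFP-positive arrays and at 3.17, 3.98 and 8.69 on YFP-negative arrays 1 to 3. YFP-negative array 1 lay inside the YFP-positive range, and array 3 was 26.2-fold above the next highest array, the largest such gap of all 19938 genes. Its SD within the YFP-negative group, 2.98, was also the largest of all genes, and the log2 fold change of -2.04 ± 1.22 (SE) did not pass (limma adjusted p = 0.325). Without YFP-negative array 3 the log2 fold change was -0.34.

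The transcription factor genes Klf1 and Gata1 were also highest on YFP-negative array 3, by less than Rhag, and Gata1 was lower on YFP-negative array 2 than on array 1. Klf1, the activator of beta-globin and membrane genes, was 4.66, 4.51, 4.58 and 4.66 on the YFP-positive arrays and 4.66, 4.76 and 6.24 on the YFP-negative ones. Gata1 had levels of 4.43, 4.47, 4.54 and 4.48 against 4.76, 4.56 and 5.80. For Klf1 array 3 was 2.81-fold and for Gata1 2.06-fold above the next highest array. The Gata1 groups did not overlap and those of Klf1 met at 1 YFP-negative array, and over all genes the YFP-negative group lay above the YFP-positive one without overlap for 13.5%, against 2 of these 7 genes, Alas2 and Gata1. Neither log2 fold change passed, at -0.62 ± 0.37 (SE) for Klf1 and -0.56 ± 0.28 (SE) for Gata1 (limma adjusted p = 0.324 and 0.233).

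Hemgn encodes hemogen, a nuclear protein of blood cell precursors. Its levels were 4.79, 4.54, 4.80 and 4.67 on the YFP-positive arrays and 4.78, 4.98 and 8.24 on the YFP-negative arrays. Arrays 1 and 2 of the YFP-negative group stayed close to the YFP-positive arrays, and array 3 was 9.61-fold above the next highest. The log2 fold change was -1.30 ± 0.80 (SE), which did not pass (limma adjusted p = 0.337), and without YFP-negative array 3 it was -0.18.

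Epor, the erythropoietin receptor gene, barely varied. It was 5.39, 5.27, 5.19 and 5.36 on the YFP-positive arrays and 5.36, 5.36 and 5.70 on the YFP-negative ones, so the groups overlapped and array 3 was 1.24-fold above the next highest array. The log2 fold change was -0.17 ± 0.10 (SE; limma adjusted p = 0.333). Its range over the 7 arrays, 0.51 log2 units, was the smallest of the 7 genes, whose next smallest was 1.37 for Gata1.

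YFP-negative array 2 set Alas2 and Slc4a1 apart from the other genes. Relative to YFP-negative array 1, Alas2 was 10.8-fold and Slc4a1 4.94-fold higher on array 2, while 0.371% of all genes were at least 2-fold higher there. So were 13 of the 92 genes of the other erythroid lists given below. On the log2 scale the difference between arrays 2 and 1 was 74.6% of that between arrays 3 and 1 for Alas2 and 43.5% for Slc4a1. The same share was 14.6% for Rhag, 6.22% for Klf1, 5.57% for Hemgn and below 0 for Gata1 (-19.3%). These shares compare single arrays and were not tested. In sorted bulk samples fewer cells of a type and less RNA per cell cannot be told apart.

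**Figure D2:**
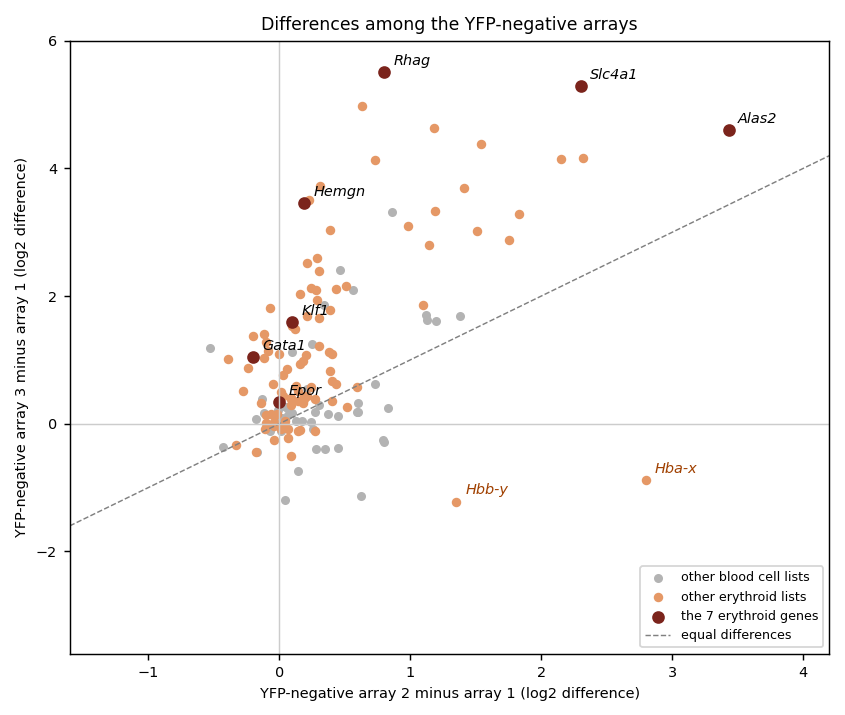
Log2 difference of YFP-negative array 2 (horizontal axis) and array 3 (vertical axis) from YFP-negative array 1, for the 7 erythroid genes (dark), other erythroid lists (orange) and lists of other blood cells (grey); the dashed line marks equal differences. Alas2 lies at 3.43 and 4.60 and Rhag at 0.80 and 5.51. The embryonic globin genes Hba-x and Hbb-y lie below the dashed line. Hbb-bh1, also an embryonic globin gene, lies above it at 0.39 and 0.82.

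The other genes of the red cell pathway were taken from 7 lists by role, with 92 measured genes of 105. Together, 35 of the 92 stood at least 2-fold above every other array on YFP-negative array 3, against 0.627% of all genes, and 70 had their highest level there. With the 7 genes above, 41 of the 125 genes that stood out on this array belonged to the erythroid lists. The genes and lists were chosen with earlier results of these data known, so these counts describe the arrays and are no independent support. By the limma test between the groups, 25 of the 92 passed as lower in YFP-positive cells and 1 as higher, beside 9.11% and 8.39% of all genes, with a median log2 fold change of -0.61 against 0.01 over all genes. Of the 35 genes that stood out on array 3, 3 were among the 25 called lower, namely Lmo2, Blvrb and Ube2l6. With YFP-positive array 2 left out the count of lower genes was 16, while the count over all genes went from 1817 to 1293. The 1 higher call became 0 when YFP-positive array 1, 2 or 4, or the first YFP-negative array, was left out, and 5 when YFP-negative array 3 was.

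**Figure D3:**
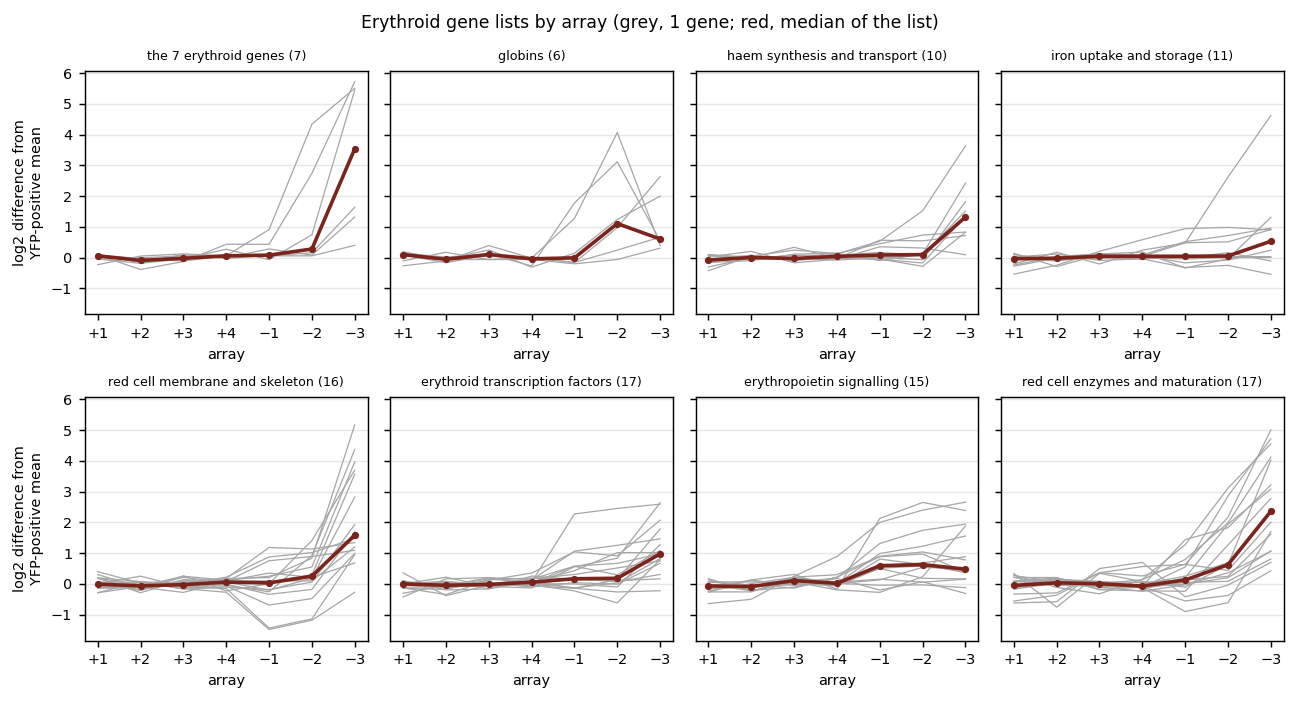
Log2 difference from the YFP-positive mean (vertical axis) on each array (horizontal axis; + YFP-positive, − YFP-negative) for the 7 erythroid genes and the 7 other lists, with grey lines for genes and a red line for the list median; lines join the arrays of a gene and imply no order. Genes of the membrane and of red cell enzymes stand out on YFP-negative array 3, and the 9 of 15 erythropoietin signalling genes that passed the test lie above the YFP-positive mean on all 3 YFP-negative arrays.

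Along the haem pathway, 6 of 10 genes stood at least 2-fold above every other array on YFP-negative array 3. The median log2 difference of the 10 measured genes between arrays 3 and 1 was 1.27, and between arrays 2 and 1 it was -0.03. Alad, the enzyme after Alas2, was 7.47, 7.59, 7.40 and 7.59 on the YFP-positive arrays and 7.68, 7.59 and 8.81 on the YFP-negative ones. Cpox, the coproporphyrinogen oxidase gene, was at most 7.47 on any other array and 9.75 on array 3, and Fech, whose enzyme puts iron into haem, stood at 6.73, 7.72 and 9.83 on the YFP-negative arrays. Alas1, the synthase of other tissues, had its lowest YFP-negative level on array 3, at 7.33, 7.29 and 7.07. In the test between groups, 2 of the 10 were lower in YFP-positive cells and 0 higher, beside 9.11% and 8.39% of all genes. These were the mitochondrial carriers Tmem14c (log2 fold change -0.67 ± 0.17 SE, limma adjusted p = 0.0391) and Slc25a38 (-0.61 ± 0.14 SE, limma adjusted p = 0.0276). Leaving out YFP-negative array 2 or 3, or YFP-positive array 2 or 4, left 0 genes of the list called, and leaving out YFP-negative array 1 left 1.

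Among the 11 iron genes, Slc25a37 (mitoferrin 1, which brings iron into the mitochondria of red cell precursors) had a profile near that of Alas2. It stood at 6.18, 6.56, 6.18 and 6.63 on the YFP-positive arrays and 6.86, 9.01 and 11.01 on YFP-negative arrays 1 to 3, and did not pass (limma adjusted p = 0.0884). Tfrc, the transferrin receptor gene, was 9.07 on array 3 and between 7.42 and 7.94 on all other arrays. The ferritin genes Ftl1 (-0.73 ± 0.13 SE) and Fth1 (-0.64 ± 0.12 SE) and the iron exporter gene Slc40a1 (-0.94 ± 0.25 SE) fell in YFP-positive cells, and Ireb2 (0.38 ± 0.09 SE), an iron sensor gene, rose (limma adjusted p from 0.00889 to 0.0431). Ireb2 was no longer called in the fits that left out YFP-positive array 1, 2 or 4, nor in those that left out YFP-negative array 1 or 3. The count of lower iron genes was 2 without YFP-positive array 1, 2 or 3, and also without YFP-negative array 2 or 3. The genes that fell are also used by macrophages, whose list is given below, and the part of those cells was not tested. Over YFP-negative arrays 1 to 3 Slc40a1 was level at 7.55, 7.59 and 7.51. Ftl1 (11.36, 11.56 and 11.80) and Fth1 (11.54, 11.57 and 11.97) were highest on array 3.

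Membrane and skeleton genes, to which Slc4a1 and Rhag belong by role, stood out on array 3. Of 16 others measured, 9 were at least 2-fold above every other array there. In the test between groups 3 passed as lower in YFP-positive cells and 0 as higher, beside 9.11% and 8.39% of all genes. These 3 were Stom (-1.22 ± 0.12 SE), the urea transporter gene Slc14a1 (-1.12 ± 0.16 SE) and Gypc (-0.91 ± 0.15 SE, limma adjusted p from 6.32e-04 to 0.00629). Add2 (0.98 ± 0.30 SE) and Tmod1 (0.54 ± 0.54 SE), genes of the membrane skeleton, had positive log2 fold changes that did not pass (limma adjusted p = 0.0675 and 0.564), and without YFP-negative array 3 the list had 3 higher calls. Kel, a blood group antigen gene, was 3.86 to 4.13 on the YFP-positive arrays and 4.16, 4.79 and 9.13 on the YFP-negative arrays. Rhd, a partner of Rhag in the Rh complex, was 3.88 to 4.36 against 3.91, 5.09 and 8.54. Epb42 and Ank1, which link band 3 to the spectrin skeleton, reached 8.51 and 7.70 on array 3, with no other array above 5.09 and 5.06. Kel, Rhd, Epb42 and Ank1 did not pass between the groups (limma adjusted p of 0.270 to 0.419).

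Red cell enzymes and genes of late maturation had the largest share of the 7 lists that stood out on array 3, 12 of 17. Between the groups 2 of the 17 passed, both lower in YFP-positive cells, a share near the 9.11% of all genes: Ube2l6 (-2.99 ± 0.69 SE, limma adjusted p = 0.0246), which encodes an enzyme of protein tagging, and the biliverdin reductase gene Blvrb (-2.16 ± 0.39 SE, limma adjusted p = 0.00897). The count of lower genes was 1 without any single YFP-positive array or YFP-negative array 2, and 7 without YFP-negative array 1, and 2 genes passed as higher without YFP-negative array 3. Bpgm, whose enzyme makes the bisphosphoglycerate that tunes oxygen release, was 6.6 to 6.97 on the YFP-positive arrays and 6.98, 8.72 and 9.86 on the YFP-negative ones. Car2, a carbonic anhydrase gene, was 4.90 to 6.02 against 6.09, 7.63 and 10.47, and Trim10 was 3.62 to 4.72 against 4.27, 5.0 and 8.40. On array 2 Bpgm, Ube2l6, Tent5c and Mkrn1 stood at between 50% and 60.7% of their log2 difference on array 3, and Trim10 at 17.6%. Over the 49 genes of all erythroid lists with a difference of at least 1 log2 unit between arrays 3 and 1, Alas2 included, the median share was 14.6%, and 29 were below 20%.

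Of 17 erythroid transcription factors, 4 stood at least 2-fold above every other array on array 3: Tal1, Lmo2, Nfe2 and E2f2. Tal1, a partner of GATA1, was between 5.5 and 5.60 on the other 6 arrays and 6.88 on array 3, and Nfe2 was 5.28, 5.56 and 7.36 on the YFP-negative arrays. Between the groups 6 of the 17 were called lower in YFP-positive cells and 0 higher, beside 9.11% and 8.39% of all genes. The 6 are used in other blood cells too, with Runx1 (-2.44 ± 0.17 SE), Lmo2 (-1.34 ± 0.30 SE), Lyl1 (-1.26 ± 0.10 SE) and Gata2 (-0.82 ± 0.21 SE) the largest among them (limma adjusted p from 1.42e-04 to 0.0383). Runx1 was level across the YFP-negative arrays at 7.38, 7.56 and 7.70. Without YFP-positive array 2 or 3 the count of lower factors was 3.

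Erythropoietin signalling genes were lower in YFP-positive cells in 9 of 15 cases and higher in 0, beside 9.11% and 8.39% of all genes. On YFP-negative array 3, 1 gene of the list, Bcl2l1, was at least 2-fold above every other array. The median log2 difference of the list between YFP-negative arrays 3 and 1 was 0.01. Csf2rb (-2.39 ± 0.18 SE), Kit (-2.35 ± 0.38 SE), the phosphatase gene Ptpn6 (-1.67 ± 0.17 SE) and the kinase gene Pim1 (-1.26 ± 0.16 SE) were the largest of the 9 (limma adjusted p from 1.92e-04 to 0.00582). These largest ones are used in other blood cells too, whose lists are given below, and the part of those cells was not tested. Csf2rb, a receptor subunit of myeloid cells, was 7.20, 7.72 and 7.46 on the YFP-negative arrays. Bcl2l1, a survival gene, was 7.02, 7.53 and 9.18 there and 7.10 to 7.36 on the YFP-positive arrays. Epo itself was 2.69 to 3.08 on the YFP-positive and 2.59 to 2.97 on the YFP-negative arrays.

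Hba-x and Hbb-y had another order across the YFP-negative arrays than the 7 genes. Hba-x, the embryonic zeta-globin gene of primitive red cells, was 5.14, 5.30, 5.80 and 5.39 on the YFP-positive arrays and 6.68, 9.48 and 5.80 on YFP-negative arrays 1 to 3. Hbb-y, the embryonic epsilon-like globin gene, was 4.64, 4.52, 4.62 and 4.23 against 6.28, 7.62 and 5.05. Both were highest on array 2 and, among the YFP-negative arrays, lowest on array 3, where Rhag, Kel and Hemgn had their maximum. Only 14 genes, or 0.0702%, stood at least 2-fold above every other array on YFP-negative array 2, and Hba-x and Hbb-y were 2 of them. The theta-like globin genes Hbq1a (4.2, 5.30 and 6.06) and Hbq1b (5.18, 6.32 and 7.98 on YFP-negative arrays 1 to 3) had the order of Slc4a1, and as near-identical copies they may share signal. Hbb-bh1 (3.22, 3.62 and 4.04) and Hbb-bh2 (4.03, 4.17 and 4.54) were also highest on array 3, over 7-array ranges of 0.82 and 0.51 log2 units. Hbb-bh1 is also an embryonic globin gene, so the order of Hba-x and Hbb-y was not that of every embryonic globin gene. Of the 6 measured globin genes 0 passed by limma, 3 had an unadjusted p under 0.05 (Hba-x, Hbb-y and Hbq1a), and Hbb-y, the nearest to the threshold, had a log2 fold change of -1.81 ± 0.53 (SE, limma adjusted p = 0.0608). The count of lower globin genes was 2 without YFP-negative array 1 and 1 without YFP-negative array 3.

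**Figure D4:**
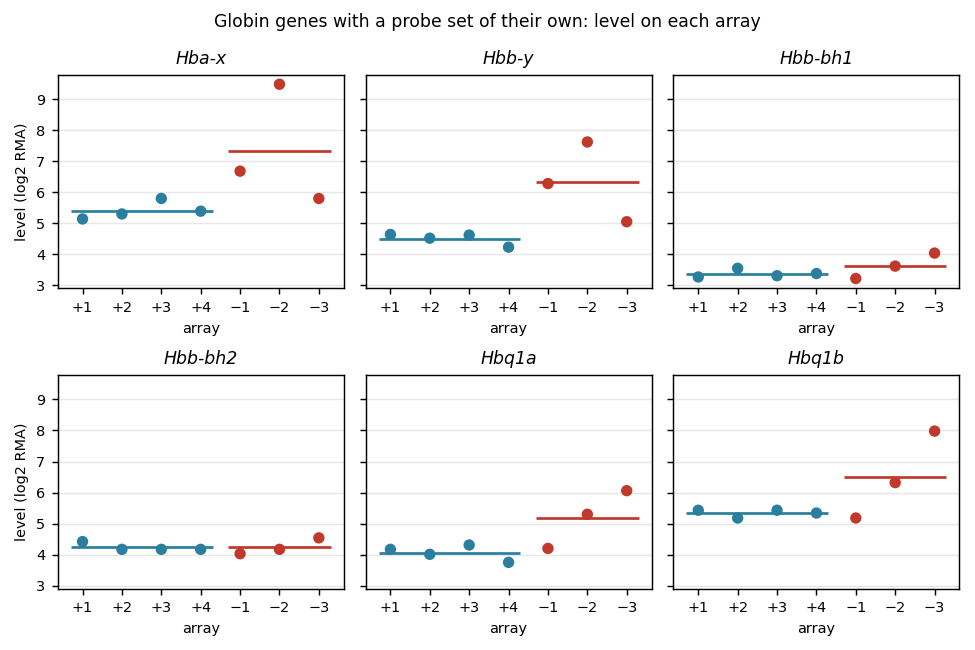
Level (log2 RMA, vertical axis) of the 6 globin genes with a probe set of their own on each array (horizontal axis; + YFP-positive, − YFP-negative), with points for arrays and lines for group means. Hba-x and Hbb-y are highest on YFP-negative array 2, at 9.48 and 7.62, and Hbq1a and Hbq1b on array 3.

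The genes with the most similar profiles were sought by the root mean square difference between profiles over the 7 arrays, each centred on its own mean. For Alas2 these were Tent5c (0.54 log2 units), Ube2l6 (0.61) and Slc25a37 (0.63), and for Slc4a1 they were Car2 (0.44), Slc25a37 (0.46) and Tent5c (0.48). Kel (0.17), Rhd (0.42) and the claudin gene Cldn13 (0.53) were nearest to Rhag. Ermap, another blood group antigen gene (0.10), Nxpe2 and Epb42 (0.23 each) were nearest to Hemgn. The smaller profiles of Klf1 and Gata1 had nearer neighbours, at 0.07 to 0.09, which were Bsdc1, Ptp4a3 and the catalase gene Cat for Klf1 and Mzb1, Gm614 and Lpin2 for Gata1. Of the 7 genes themselves, Klf1 and Gata1 were 0.16 apart and Alas2 and Slc4a1 0.64, while Alas2 and Gata1 were 1.87 apart. Epor, with a range under 1 log2 unit, was left out.

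**Figure D5:**
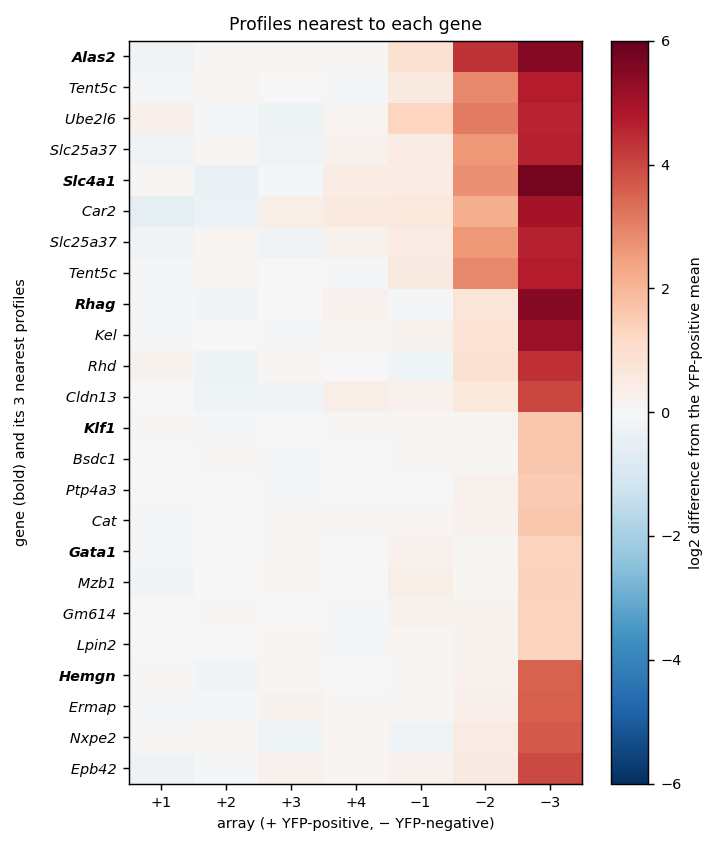
Log2 difference from the YFP-positive mean (colour) on each array (horizontal axis; + YFP-positive, − YFP-negative) for 6 of the erythroid genes (bold) and the 3 genes nearest to each. Alas2, Slc4a1 and their neighbours are coloured on YFP-negative arrays 2 and 3, and the rest mainly on array 3.

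Neuron and glia markers fitted the labels of the sorted cells. All 9 measured neuron and 7 glia markers were higher in YFP-positive cells, with Tubb3 at 4.95 ± 0.29 and Fabp7 at 4.89 ± 0.27 (log2 fold change ± SE, limma adjusted p = 9.03e-05 and 7.36e-05). The median level over all genes was 5.87 to 5.92 on each array, and over YFP-negative arrays 1 to 3 the list means were 5.44, 5.22 and 5.59 for neurons and 5.76, 5.61 and 5.94 for glia. On YFP-positive arrays 1 to 4 the macrophage list mean was 5.20, 5.44, 5.89 and 6.11, while the mean of the 7 erythroid genes was 4.84, 4.73, 4.84 and 4.96. Intestinal epithelium genes did not separate the groups, with 0 of 13 called in either direction. Their list means were 7.74, 8.02, 8.62 and 8.86 on YFP-positive arrays 1 to 4, and 8.31, 8.32 and 8.47 on YFP-negative arrays 1 to 3. The source of this signal in the YFP-positive samples was not tested.

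Lists of other blood cells differed among themselves in where they were high. Of 10 megakaryocyte and platelet genes, which share GATA1 with red cells, 0 stood at least 2-fold above every other array on YFP-negative array 3. On that array 3 of the 10 had their highest level, and 3 had it on YFP-negative array 2. Pf4, among the latter 3, was lowest on array 3 among the YFP-negative arrays (9.77, 10.39 and 8.64). The list means on YFP-negative arrays 1 to 3 were 5.59, 5.77 and 5.54 for megakaryocyte genes, 4.45, 4.68 and 4.69 for 7 eosinophil genes and 8.24, 8.55 and 8.04 for 12 macrophage genes, the last all lower in YFP-positive cells. Mast cell genes, another GATA1-dependent lineage, had means of 5.46, 5.61 and 5.99, and 3 of 11 stood out on array 3, among them Mcpt2 at 7.04, 7.38 and 8.90. Neutrophil genes had means of 6.59, 7.24 and 8.03, with 8 of 10 highest on array 3 and 4 of 10 (40.0%, beside 38.0% of the other erythroid lists) at least 2-fold above every other array there, among them the granule genes Ngp (6.14, 7.0 and 9.45) and Camp (6.01, 6.47 and 8.43). Fibroblast genes were lower on array 3, at means of 10.04, 10.01 and 9.28. The part of these cells in the erythroid levels was not tested.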

How the data were processed

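Total RNA of 7 sorted samples was converted to biotinylated cDNA by whole-transcriptome amplification, 1 array per sample, per the labels' protocols. The deposited values per probe set are on the log2 scale. The submitters' processing notes name RMA and Affymetrix Expression Console, without versions. RMA brings arrays to a common distribution, which can compress differences. All columns were matched to samples by accession (0 unmatched).

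Of 35556 probe sets, 21789 were paired with 1 gene symbol, 1621 with several (adult globins among them, left out here) and 12146 with none; the brightest of a gene was kept, for 19938 genes. Groups were compared with limma 3.58.1 in R 4.3.3 (lmFit, eBayes), Benjamini-Hochberg adjusted over all genes at 0.05, without a block. The fit was tested on simulated data. Python 3.11.15, pandas 2.3.3, numpy 2.4.6 and matplotlib 3.10.9 did the rest. The number of arrays limits precision.

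The members and lists were chosen with earlier results of these data known. Named genes are the 7 members, all measured globin genes, the largest called changes (up to 4 per erythroid list, up to 2 per other list), up to 2 called against the direction of their list, and the 3 nearest profiles. Alad, Cpox, Fech, Alas1, Tfrc, Kel, Rhd, Epb42, Ank1, Add2, Tmod1, Bpgm, Car2, Trim10, Mkrn1, Tal1, Nfe2, E2f2, Bcl2l1, Epo, Ngp and Camp were, where not nearest profiles, named after their values were seen. Alternatives were trend and robust eBayes, median centring, quantile normalization, a filter on genes of low mean level, mean probe sets, array weights, a replicate block and single arrays left out in turn. Fits without YFP-negative arrays 2 and 3 and without YFP-positive arrays 3 and 4 were added after seeing the data.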

Additional observations from a re-analysis of the deposited data

Results flagged for a closer look

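Among the YFP-positive arrays, 3 of 86 values tested with Dixon's gap ratio had 1 array far from the other 3, where chance flags about 1 in 20. Hbb-bh2 was 4.42 on YFP-positive array 1 and 4.17 on the others (ratio 1.0). Nxpe2, the second nearest profile to Hemgn, was 4.11 on YFP-positive array 3 and 4.47 or 4.48 on the others (ratio 0.979). The mean of the haem synthesis list was 6.64 on YFP-positive array 1 and 6.76, 6.76 and 6.77 on the others (ratio 0.895).

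Probe sets that the annotation does not pair with 1 gene were not used in any comparison. Of 13767 such probe sets, 170 (1.23%) stood at least 2-fold above every other array on YFP-negative array 3, against 10 to 59 on each YFP-positive array and 19 and 20 on YFP-negative arrays 1 and 2.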

How the results depend on the processing

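Every fit of the 7 genes kept the sign of the log2 fold change, except that Rhag was 0.06 without YFP-negative arrays 2 and 3. The filter on low mean levels gave no value for Rhag, Klf1 and Gata1. The call of Alas2 was lost in 9 of 16 alternatives (adjusted p of 0.0941 with the replicate block, and from 0.000867 to 0.202 over all 16), and Slc4a1 passed in 1. The count of the 7 genes called lower was 1, and 0 with the replicate number as a block, without YFP-negative arrays 2 and 3 or without YFP-positive arrays 3 and 4; with 1 array left out it was 0 to 2. The count called higher was 0 in every fit. Of the 92 other erythroid genes, 25 were called lower, 7 without YFP-negative arrays 2 and 3, 16 without YFP-positive arrays 3 and 4, and 16 to 31 with 1 array left out. The 1 called higher became 3 with quantile normalization or array weights, 2 with the filter on low mean levels or without YFP-negative arrays 2 and 3, 0 without YFP-positive arrays 3 and 4, and 0 to 5 with 1 array left out. Over all genes, 1672 were higher and 1817 lower, 575 and 604 without YFP-negative arrays 2 and 3 (where the lone array is assumed to vary like the rest), and 1202 to 1452 and 1166 to 1890 with 1 array left out. Array weights gave YFP-negative array 3 the lowest weight (0.513). The labels do not say whether same-numbered samples were paired. Deviations of same-numbered arrays from their group means had correlations of 0.01, -0.09 and 0.04, which cannot decide this with so few arrays. The replicate block called 1245 genes higher and 1264 lower. Dim members can be largely background, which limits their differences.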

Other observations

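The 10 genes that stood highest above every other array on YFP-negative array 3 were Rhag, Kel, Rhd, Epb42, Trim10, Cldn13, Ermap, Hemgn, Nxpe2 and Slc4a1, of which 8 were on the erythroid lists. Of the first 30, 16 were on those lists and 12 on no list used here. Among these 12, chosen after their values were seen, Xpo7, an export factor gene, was 10.80 on array 3 and 8.04 to 8.36 on all other arrays. Tmcc2 was 8.81 against 5.54 to 6.28, and Ctse, an aspartic protease gene, 7.10 against 4.39 to 5.12.

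YFP-negative array 2 had a set of its own. After the small nucleolar RNA gene Snord15a (8.02, with 4.35 to 4.60 on the other arrays), Hba-x and the leptin receptor gene Lepr (6.18 against 3.78 to 4.53) stood highest above every other array. The interferon-regulated genes Irf7 (7.26 against 4.78 to 6.16) and Cxcl9 (6.13 against 4.48 to 5.09) were also among its 14 genes. These genes too were chosen after their values were seen.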
